A study of Mus musculus with 18 samples.

Results

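The genes of 3 RUNX factors (Runx1, Runx2 and Runx3), of their shared partner CBFβ (Cbfb) and of 6 ETS factors (Ets1, Ets2, Fli1, Elf1, Elf4 and Gabpa) were followed in CD4+ T cells of Tg4 mice. They were chosen by name, as factors that are thought to keep primed regions of chromatin open, and are 10 of the 37991 genes counted. RNA-seq had been done on 18 libraries of CD4 T cells, enriched from spleen with a magnetic kit and not sorted further, from young adult mice of both sexes of the strain Tg4-H2u. All mice carried a transgenic TCR for a peptide of myelin basic protein, so that most of their CD4+ T cells, but not all, recognise this antigen (Ag). Tolerized mice (T) had been given the 4Y peptide under the skin again and again in rising doses, and control mice (N, mostly naive T cells) PBS on the same schedule. In T0 and N0 the last injection, 2 h before harvest, was PBS, and in TAg and NAg it was the peptide. TPI and NPI cells were treated for 2 h in culture with PMA and a calcium ionophore (PI), which act downstream of the TCR. Each of the 6 groups had 3 biological replicates.

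RUNX proteins bind DNA through the runt domain as heterodimers with CBFβ, which does not touch DNA but raises the affinity and the stability of the RUNX subunit. ETS proteins share a winged-helix domain that reads sites with a GGAA core, and GABPα, the product of Gabpa, works with GABPβ, which carries the transactivation domain. In T cells both families occupy promoters and enhancers of resting cells, often side by side, and the AP-1 and NFAT factors that TCR signals induce bind near them.

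Total counts per library lay between 10758571 and 24119489, with a median of 12268935. Values are normalized counts, that is counts divided by the TMM scale of each library, and a gene is said to have changed where edgeR's quasi-likelihood test over 17240 genes gave an adjusted p under 0.05. All 10 genes passed the low filter, a mean of 3 normalized counts in at least 1 group. The 9 CD4 T cell markers summed to between 36510.0 and 38090.0 in N0, 31260.0 and 36860.0 in T0, 21180.0 and 22440.0 in NAg, 24040.0 and 26990.0 in TAg, 56210.0 and 62900.0 in NPI and 62520.0 and 65950.0 in TPI. In such bulk samples fewer cells of a type and less RNA per cell cannot be told apart. Of 13 neutrophil markers, 12 were higher in T0 than in N0, with sums between 2164 and 3641 against 111 and 239, all 13 were higher in TAg than in NAg and 7 in TPI than in NPI. Of 12 macrophage and monocyte markers 8 were lower in TAg than in NAg. After PI, 7 of the neutrophil, 8 of the macrophage and monocyte and all 10 of the megakaryocyte markers were lower in NPI than in N0, and 11, 5 and 8 of them in TPI than in T0. By Y-linked reads, the N0 and NAg libraries were all female, the NPI and TPI libraries all male, and T0 and TAg held both. So the sex of the mice, and culture itself, cannot be told apart from PI in NPI:N0, nor culture in TPI:T0. Sex changed in full in NPI:N0 but only in part in TPI:T0, so that it does not cancel in the difference in response to PI. With 2 male libraries in T0 and 1 in TAg, sex also differed in part in T0:N0 and TAg:NAg. Nor does it cancel in the difference in response to Ag.

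The genes lie at separate loci of the mm9 build (NCBIM37), with the exception of Ets1 (chr9:32443806-32565405, plus strand) and Fli1 (chr9:32229793-32348974, minus strand), which are neighbours. Runx1 (chr16:92601712-92826311), Runx2 (chr17:44632936-44951746) and Elf4 (chrX:45764223-45816309) are on the minus strand. Runx3 (chr4:134676567-134733905), Cbfb (chr8:107694574-107741886), Ets2 (chr16:95923682-95942658), Elf1 (chr14:79881001-79982283) and Gabpa (chr16:84835170-84864024) are on the plus strand. Exons of 4 members overlap other genes on the opposite strand. Gabpa shares 397 bases with Atp5j, Runx2 519 with Gm10497, Runx1 106 with Gm16801 and Elf1 75 with Wbp4. Runx2 also shares 2532 bases with a second locus of its name, which had 0 reads. Since the strand setting of the counting is not given in the sources used here, reads in these bases are uncertain.

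Promoter windows, from 250 bases before to 50 after a start, were at hand from RefSeq (GRCm38.p6) for 8 of the 10 genes, as 12 windows. None was at hand for Ets1 and Fli1. The 3 RUNX genes share a run of 18 letters, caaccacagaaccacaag, in 1 window each. It holds a pair of RUNX core motifs (TGTGGT, here read as ACCACA on the other strand) and is shown because it joins the 3 genes beyond their names. Each stretch of 30 bases has the motifs in capitals. Counted from the start of transcription, the run begins at base 26 in Runx1 (chr16:92826025-92826054, minus strand), at 21 in Runx2 (chr17:44814583-44814612, minus strand) and at -136 in Runx3 (chr4:135120503-135120532, plus strand).
Runx1: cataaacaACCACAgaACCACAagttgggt
Runx2: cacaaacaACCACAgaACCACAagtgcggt
Runx3: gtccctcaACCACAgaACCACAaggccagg
The run was picked from these windows, and stands in 4 of 32851 windows in the table. The other one belongs to Gm16225 and overlaps the Runx3 window by 232 bases on the opposite strand. A single TGTGGT, on either strand, was present in 16.8% of all windows.

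Elf1 and Elf4 had like patterns across the libraries, and Cbfb and Gabpa opposite ones. The 250 bases before a start are therefore given for these 4 genes, with GGAA and the AP-1 motif TGANTCA in capitals on both strands (TTCC is GGAA read on the other strand). Matches that reach past the start are not marked. Among them is a GGAA at base -2 in the Elf1 and the Elf4 window shown, the only GGAA match in that window of Elf1. Of the 2 windows of Elf1 and of Elf4, the one with an AP-1 match is shown: Elf1 (chr14:79515424-79515673, plus strand), Elf4 (chrX:48463133-48463382, minus strand), Cbfb (chr8:105170424-105170673, plus strand) and Gabpa (chr16:84834874-84835123, plus strand).
Elf1: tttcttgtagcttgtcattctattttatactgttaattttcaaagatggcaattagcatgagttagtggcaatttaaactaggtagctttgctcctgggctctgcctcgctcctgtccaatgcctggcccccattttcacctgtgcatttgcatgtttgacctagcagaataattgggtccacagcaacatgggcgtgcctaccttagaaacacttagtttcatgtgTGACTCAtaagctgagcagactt
Elf4: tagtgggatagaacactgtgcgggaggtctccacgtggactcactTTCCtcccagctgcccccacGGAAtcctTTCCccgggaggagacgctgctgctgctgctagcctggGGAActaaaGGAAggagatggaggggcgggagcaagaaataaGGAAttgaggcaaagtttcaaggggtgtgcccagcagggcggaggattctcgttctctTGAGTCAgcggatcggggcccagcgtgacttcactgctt
Cbfb: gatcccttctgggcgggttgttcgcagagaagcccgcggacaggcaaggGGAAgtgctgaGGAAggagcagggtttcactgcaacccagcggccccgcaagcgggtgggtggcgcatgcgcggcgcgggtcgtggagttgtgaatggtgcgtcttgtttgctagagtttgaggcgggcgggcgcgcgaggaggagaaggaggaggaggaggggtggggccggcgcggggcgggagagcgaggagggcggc
Gabpa: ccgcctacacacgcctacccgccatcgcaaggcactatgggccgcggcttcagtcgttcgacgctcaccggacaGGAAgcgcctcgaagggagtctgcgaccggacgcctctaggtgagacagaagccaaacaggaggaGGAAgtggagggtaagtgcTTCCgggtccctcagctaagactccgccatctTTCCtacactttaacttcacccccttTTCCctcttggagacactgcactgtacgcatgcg
TGANTCA was found in 2 of the 12 member windows, 1 of Elf1 and 1 of Elf4, and in 7.81% of all windows. GGAA was in 11 of the 12 windows and in 96.0% of all. These are matches of letters, not bound sites.

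Without stimulation, tolerized and naive cells held 4 of the 10 transcripts at different levels: Runx2, Runx3 and Elf4 were higher in T0, and Ets2 was lower. Over all genes tested, 20.4% differed in T0:N0 with TMM over all libraries, 8.42% higher and 12.0% lower. Ag moved nearly the whole set. In naive cells all 10 genes changed, 6 up and 4 down (65.5% of all genes changed, 32.1% up and 33.4% down), and in tolerized cells 9 changed, 4 up and 5 down (59.8% of all, 29.9% up and 29.8% down). The 4 that fell in both states were Ets1, Fli1, Elf1 and Elf4, and the rises shared by both were those of Runx2, Cbfb, Ets2 and Gabpa. After PI, 9 genes changed in naive cells, 6 up and 3 down (61.4% of all, 28.6% up and 32.7% down), and 8 in tolerized cells, 6 up and 2 down (68.3% of all, 32.0% up and 36.3% down). These shares of all genes are high, so the counts alone do not set the 10 genes apart.

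After Ag, tolerized cells differed from naive cells in 8 of the 10 genes, 5 higher and 3 lower (39.4% of all genes, 20.9% higher and 18.5% lower). After PI they differed in 6, 4 higher and 2 lower (37.9% of all, 18.2% higher and 19.7% lower). Replicates of both groups did not overlap for 6, 8 and 6 of the genes in T0:N0, TAg:NAg and TPI:NPI, against 35.0%, 47.7% and 50.5% of all genes. For NAg:N0, TAg:T0, NPI:N0 and TPI:T0 this was so for 10, 9, 10 and 8 of them, against 68.1%, 64.5%, 66.4% and 72.5%. The response to Ag itself differed between the states for 4 genes by the test of the difference, Ets1 and Elf1 in 1 direction and Ets2 and Runx1 in the other (21.7% of all genes, 14.6% higher and 7.09% lower). For PI the same test called 4 genes, Runx1 and Elf1 higher and Ets1 and Runx3 lower (20.2% of all, 12.7% higher and 7.52% lower). The comparisons share control libraries, so that they are not independent of each other.

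The split into rises and falls moved when libraries were scaled by their total counts in place of TMM. With TMM the median log2 fold change of all genes was 0.00 in NAg:N0, -0.05 in TAg:T0, -0.06 in NPI:N0, -0.10 in TPI:T0, 0.01 in TAg:NAg and -0.04 in TPI:NPI. For the differences in response it was 0.05 for Ag and -0.04 for PI. With library totals these medians were -0.42, -0.40, -0.65, -0.92, 0.20 and -0.15, and 0.12 and -0.26 for the differences in response. Higher and lower members were then 4 and 4 in NAg:N0, 2 and 6 in TAg:T0, 3 and 7 in NPI:N0, 2 and 7 in TPI:T0, 7 and 2 in TAg:NAg and 2 and 2 in TPI:NPI, with 5 and 2 for the difference in response to Ag and 0 and 4 for that to PI. Over all 17283 genes in that fit, 3942 were higher and 7455 lower in NAg:N0, and 3761 and 7050 in TAg:T0. The numbers were 2692 and 9133 in NPI:N0, 2677 and 10325 in TPI:T0, 5316 and 1783 in TAg:NAg and 2460 and 4590 in TPI:NPI. For the differences in response they were 3263 and 1025 for Ag and 1241 and 3234 for PI. In T0:N0 library totals left 3 members higher and 1 lower, as with TMM. Over all genes, however, 1761 were then higher and 926 lower at rest, against 1452 and 2067 with TMM. When only the groups compared were fitted, 1401 were higher and 962 lower in T0:N0, of 16099 genes. Values below are relative to TMM, and the members whose direction turned are named beside them. Counts for the lists of other genes further down are given with TMM only.

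**Figure D1:**
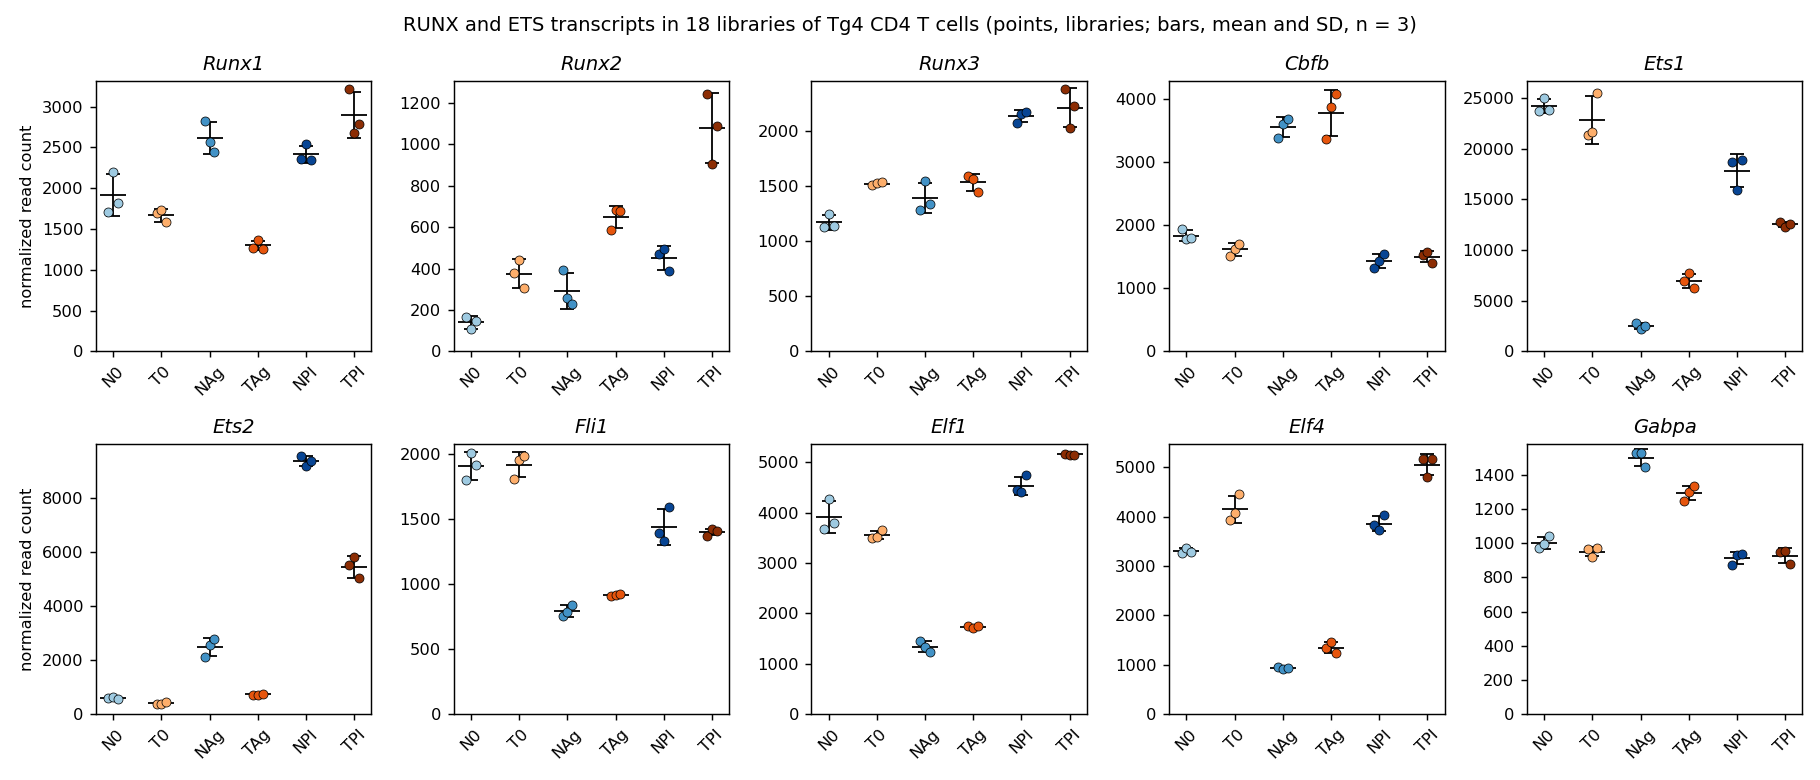
Normalized read counts (vertical axes, from 0) of the 10 genes in the 6 groups of Tg4 CD4 T cells, with 1 point per library and bars for the mean and SD of 3 libraries. Ets1, Fli1, Elf1 and Elf4 dip in NAg and TAg, where Cbfb and Gabpa peak, and Ets2 peaks in NPI and TPI.

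Ets1 encodes the ETS factor that T cells express in quantity and that occupies enhancers with RUNX1. Its transcript was the most abundant of the 10 per kilobase of exon in N0, at 3767 ± 104 normalized counts per kb (SD, n = 3), against 905 ± 73.7 for Elf1, the next. Normalized counts of Ets1 were 23773, 24963 and 23836 in the N0 libraries and 21339, 21619.8 and 25518 in T0. After Ag they were 2797, 2229.7 and 2483 in NAg and 6951, 7696 and 6293 in TAg. With PI they were 18679.6, 15949.8 and 18865 in NPI and 12779, 12318 and 12548 in TPI. The resting groups overlapped, and the other 4 groups stood apart from them and from each other, in the falling order NPI, TPI, TAg and NAg.

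Ag thus took Ets1 down 9.66-fold in naive cells (log2 fold change -3.27, SE 0.10, adjusted p = 6.07e-19), which was the 260th deepest fall among the genes ranked in that comparison. In tolerized cells it went down 3.27-fold (log2 fold change -1.71, SE 0.09, adjusted p = 5.7e-14). The responses differed by 1.56 on the log2 scale (SE 0.13, adjusted p = 8.38e-09), and TAg stood 2.79-fold above NAg (log2 fold change 1.48, SE 0.09, adjusted p = 2.49e-11). With the marker scores of other cells as covariates the log2 difference in response was 1.58 (adjusted p = 2.02e-07). The summed CD4 T cell markers were lower after Ag as well, and their part in the fall was not tested. At rest T0 and N0 differed by -0.08 (SE 0.09, 95% interval -0.27 to 0.10, adjusted p = 0.571), a value that was 0.02 with library totals and 0.07 with sex as a covariate.

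PI lowered Ets1 as well, and more in tolerized than in naive cells. The log2 fold change was -0.44 in NPI:N0 (SE 0.09, adjusted p = 0.000192), but -0.21 with sex as a covariate (adjusted p = 0.136) and -0.30 with the marker scores (adjusted p = 0.32). It was -0.86 in TPI:T0 (SE 0.09, adjusted p = 1.02e-08), and TPI lay below NPI by a log2 fold change of -0.51 (SE 0.09, adjusted p = 9.54e-05). The difference in response was -0.42 (SE 0.13, adjusted p = 0.0212), and it missed the threshold without T0 replicate 3, NPI replicate 3, N0 replicate 1 or N0 replicate 3 (adjusted p from 0.051 to 0.0757).

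Ets2, a close relative of Ets1 that is known as an immediate-early target of RAS and MAPK signals, rose with both stimuli. Normalized counts of Ets2 were 579, 631 and 570.2 in N0 and 365, 388 and 451 in T0. NAg libraries had 2109, 2536 and 2785 and TAg libraries 719, 717 and 755. PI gave 9528, 9154 and 9331 in NPI and 5494, 5796 and 5014 in TPI. No 2 neighbouring groups overlapped, in the order NPI, TPI, NAg, TAg, N0 and T0, and the ratio of the highest to the lowest group mean was 23.2, above that of the other 9 genes and of 96.2% of the 11555 genes compared (median ratio 3.26).

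In naive cells Ag raised Ets2 by 4.18-fold (log2 fold change 2.06, SE 0.09, adjusted p = 6.03e-16), and in tolerized cells by 1.82-fold (log2 fold change 0.86, SE 0.09, adjusted p = 1.76e-08). The responses differed by -1.20 (SE 0.13, adjusted p = 4.68e-07). TAg was 3.39-fold below NAg (log2 fold change -1.76, SE 0.09, adjusted p = 6.03e-13). PI raised it 15.7-fold in naive cells (log2 fold change 3.98, SE 0.10, adjusted p = 3.78e-20) and 13.5-fold in tolerized cells (log2 fold change 3.76, SE 0.10, adjusted p = 4.04e-20). The PI responses differed by -0.22 (SE 0.13, 95% interval -0.48 to 0.05, adjusted p = 0.259), and by -0.30 when only the groups compared were fitted (adjusted p = 0.0356) and -0.44 with library totals (adjusted p = 0.00469). TPI remained 1.72-fold below NPI (log2 fold change -0.78, SE 0.08, adjusted p = 1.08e-07). At rest T0 was 1.48-fold below N0 (log2 fold change -0.57, SE 0.09, adjusted p = 0.000165), a call that was lost with the marker scores (-0.39, adjusted p = 0.38). The fit with the scores called 69 genes higher and 69 lower of all 17240 at rest, against 1452 and 2067 without them.

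Fli1, an ETS factor known from blood and vessel development and from the effector response of T cells, was lower after Ag in both states, as was its neighbour Ets1. Normalized counts of Fli1 were 1799, 2013 and 1921 in N0, 1809, 1956 and 1989 in T0, 753, 784 and 842 in NAg, and 910.4, 914 and 923 in TAg. PI libraries had 1394, 1329 and 1597 in NPI and 1373, 1424 and 1411 in TPI. N0 and T0 overlapped, as did NPI and TPI, with the Ag groups below all others. The log2 fold change was -1.27 in NAg:N0 (SE 0.07, adjusted p = 1.24e-13) and -1.07 in TAg:T0 (SE 0.07, adjusted p = 4.42e-12), and the difference of 0.20 did not pass the test (SE 0.10, 95% interval -0.01 to 0.42, adjusted p = 0.184), although it did with library totals (0.28, adjusted p = 0.0308). With PI it was -0.41 in naive cells (SE 0.07, adjusted p = 2.87e-05) and -0.45 in tolerized cells (SE 0.07, adjusted p = 5.52e-06, but 0.0649 with the marker scores). TAg exceeded NAg by 0.21 (SE 0.08, adjusted p = 0.0309). That call was lost with DESeq2 (adjusted p = 0.0715), with its size factors (0.0682), with the marker scores (0.0649) and without TAg replicate 1, 2 or 3 or NAg replicate 1 or 2 (0.0522 to 0.0895). At rest Fli1 differed by 0.01 (SE 0.07, adjusted p = 0.973). TPI:NPI was -0.04 (SE 0.07, 95% interval -0.19 to 0.11, adjusted p = 0.721), or 0.05 with the marker scores. The PI responses differed by -0.04 (SE 0.10, 95% interval -0.25 to 0.17, adjusted p = 0.82), but by -0.26 with library totals (adjusted p = 0.0334).

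Elf1 and Elf4 belong to the ELF branch of the ETS family, in which Elf4 (MEF) is known for holding T cells in quiescence. Elf1 had normalized counts of 3674, 4277 and 3795 in N0, 3500.0, 3512 and 3644 in T0, 1449, 1337 and 1234 in NAg, and 1755, 1716 and 1739.7 in TAg. In PI libraries it had 4444, 4401 and 4737 (NPI) and 5168, 5144 and 5147 (TPI). No neighbouring groups of Elf1 overlapped, from TPI at the top through NPI, N0, T0 and TAg to NAg. Ag took Elf1 down by a log2 fold change of -1.55 in naive cells (SE 0.07, adjusted p = 7.58e-16) and of -1.03 in tolerized cells (SE 0.07, adjusted p = 2.21e-12), which differed by 0.52 (SE 0.10, adjusted p = 0.000374). TAg was above NAg by 0.37 (SE 0.07, adjusted p = 0.000145). At rest the difference was -0.14 (SE 0.07, adjusted p = 0.149).

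PI took Elf1 up by 0.21 in naive cells (log2, SE 0.07, adjusted p = 0.00913) and 0.54 in tolerized cells (SE 0.07, adjusted p = 1.5e-07), although with library totals both turned to falls, of -0.37 and -0.26. The rise in naive cells missed the threshold with the marker scores (0.35, adjusted p = 0.105) and without NPI replicate 3, N0 replicate 1 or N0 replicate 3 (0.0509 to 0.168). The PI responses differed by 0.33 (SE 0.09, adjusted p = 0.0156), and by 0.11 with library totals (adjusted p = 0.429). TPI exceeded NPI by 0.19 (SE 0.07, adjusted p = 0.0303), which was lost with library totals (0.07, adjusted p = 0.398), without the filter on low counts (adjusted p = 0.0523), with the marker scores (adjusted p = 0.417) and without TPI replicate 2 or 3 or NPI replicate 1 or 2 (0.0615 to 0.0932).

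Elf4 normalized counts were 3268, 3364 and 3281 in N0, 3929.9, 4066 and 4458 in T0, 949, 909 and 935 in NAg, and 1345, 1466 and 1229 in TAg. NPI had 3826, 3723 and 4032, and TPI 5167, 4805 and 5173. Tolerized cells were above naive cells in each of the 3 conditions, with no overlap. The log2 fold changes were 0.33 at rest (SE 0.07, adjusted p = 0.00132), 0.53 after Ag (SE 0.07, adjusted p = 2.96e-06) and 0.39 after PI (SE 0.07, adjusted p = 6.92e-05). The call at rest was lost with the marker scores, at 0.43 (adjusted p = 0.137), in the fit that called 69 genes higher and 69 lower of all. Those after Ag (0.57, adjusted p = 5.26e-05) and after PI (0.49, adjusted p = 0.00289) were kept. Elf4 is X-linked: T0 replicate 3, the female library of that group, had its highest count, and TAg replicate 3, the male one, had the lowest of its group. The part of sex was not tested beyond a covariate, with which no call of Elf4 changed.

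Ag took Elf4 down 3.55-fold in naive cells (log2 fold change -1.83, SE 0.07, adjusted p = 5.64e-17) and 3.08-fold in tolerized cells (-1.62, SE 0.07, adjusted p = 6.83e-16), and the difference of 0.20 did not pass the test (SE 0.10, adjusted p = 0.159), although it did without T0 replicate 3 (0.28, adjusted p = 0.0438) and with library totals (0.28, adjusted p = 0.0191). PI raised it by 0.22 in naive cells (SE 0.07, adjusted p = 0.00627) and 0.28 in tolerized cells (SE 0.07, adjusted p = 0.00075), which turned to -0.35 and -0.51 with library totals. With the marker scores these were 0.17 and 0.23 and no longer passed (adjusted p = 0.454 and 0.384), and the one in naive cells also missed the threshold without N0 replicate 1 or N0 replicate 3 (adjusted p = 0.0674 and 0.0673). The PI responses differed by 0.06 (SE 0.10, 95% interval -0.14 to 0.26, adjusted p = 0.739), or -0.16 with library totals and -0.06 with sex as a covariate.

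Gabpa, whose product drives genes of mitochondria and basic cell metabolism, varied least, with a ratio of 1.64 between its highest and lowest group means. Normalized counts of Gabpa were 969.8, 996 and 1041 in N0, 964, 919 and 971 in T0, 1529, 1527 and 1445 in NAg and 1248, 1301 and 1334 in TAg. NPI had 874, 931 and 935, and TPI 948, 956 and 878. The 2 Ag groups were above the other 4 and apart from each other, and the other 4 overlapped along their order. Ag raised Gabpa by 0.58 in naive cells (log2, SE 0.06, adjusted p = 1.73e-08) and by 0.44 in tolerized cells (SE 0.06, adjusted p = 1.67e-06), the latter 0.11 with library totals (adjusted p = 0.113). The responses differed by -0.14 (SE 0.09, adjusted p = 0.324), and TAg was below NAg by -0.21 (SE 0.06, adjusted p = 0.0102), or -0.03 with library totals (adjusted p = 0.699). At rest the difference was -0.08 (SE 0.06, adjusted p = 0.455), or 0.03 with library totals. With PI the log2 fold change of Gabpa was -0.13 in naive cells (SE 0.06, adjusted p = 0.0791), but -0.71 with library totals (adjusted p = 8.78e-10), -0.20 without N0 replicate 1 (adjusted p = 0.0181) and -0.19 without N0 replicate 2 (adjusted p = 0.0319). In tolerized cells it was -0.04 (SE 0.06, adjusted p = 0.624), but -0.84 with library totals (adjusted p = 3.7e-11) and 0.13 with the marker scores (adjusted p = 0.652). TPI:NPI was 0.02 (SE 0.06, adjusted p = 0.843), or -0.09 with library totals, and the PI responses differed by 0.10 (SE 0.09, 95% interval -0.09 to 0.29, adjusted p = 0.521), or -0.13 with library totals.

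**Figure D2:**
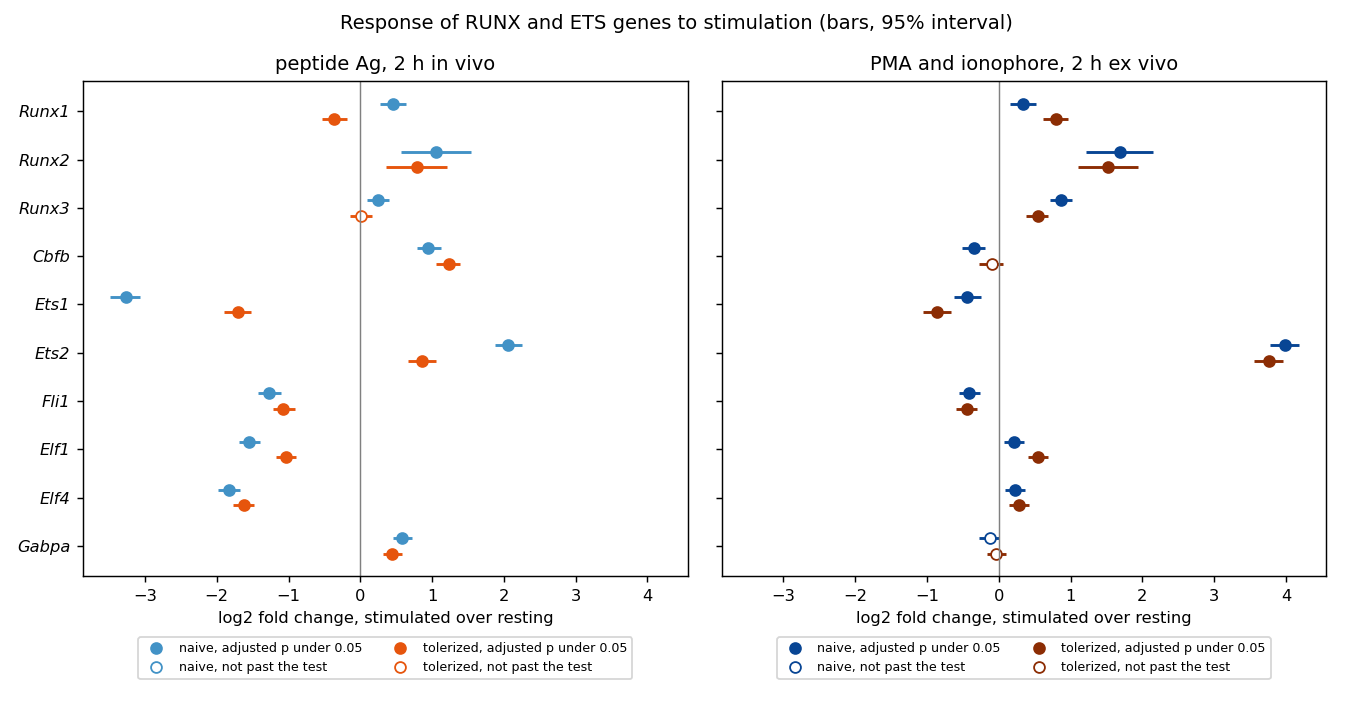
Log2 fold changes over resting cells (horizontal axes) of the 10 genes 2 h after Ag in vivo (left) or PI in culture (right), in naive and tolerized cells, with 95% intervals as bars and open circles where the test was not passed. After Ag, Ets1 sits at -3.27 in naive and -1.71 in tolerized cells, and Runx1 lies on opposite sides of 0. With libraries scaled by their totals, the values of Elf1 and Elf4 after PI were below 0 in both states, as were those of Runx1 after PI (-0.24 in naive and -0.01 in tolerized cells), of Runx3 in tolerized cells after PI and of Runx3 after Ag in both states.

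Runx1, which is needed for T cell development and for keeping CD4+ T cells naive, gave responses to Ag of opposite sign. Its normalized counts were 1708, 2201 and 1824 in N0 and 1691, 1731 and 1582 in T0. NAg had 2827, 2563 and 2443, while TAg had 1269, 1365 and 1259. NPI had 2358, 2536 and 2346, and TPI 3214, 2681 and 2787. The 3 NAg libraries lay above all 6 resting ones and the 3 TAg libraries below them, whereas both PI groups were above the resting groups.

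In naive cells Ag raised Runx1 by a log2 fold change of 0.45 (SE 0.09, adjusted p = 6.34e-05), which was 0.05 with library totals (adjusted p = 0.643). In tolerized cells it fell by 0.36 on that scale (SE 0.09, adjusted p = 0.000916), and the responses differed by -0.81 (SE 0.12, adjusted p = 3.46e-05). TAg was 2.01-fold below NAg (log2 fold change -1.01, SE 0.09, adjusted p = 4.79e-09). PI raised it by 0.34 in naive cells (SE 0.09, adjusted p = 0.0016) and 0.80 in tolerized cells (SE 0.09, adjusted p = 1.48e-08), although with library totals these were -0.24 and -0.01, and the naive value was 0.33 with the marker scores and missed the threshold (adjusted p = 0.24). The PI responses differed by 0.46 (SE 0.12, adjusted p = 0.00869), or 0.23 with library totals (adjusted p = 0.194). TPI exceeded NPI by 0.26 (SE 0.09, adjusted p = 0.0175), a call lost with library totals (adjusted p = 0.204), with the marker scores (0.119) and without TPI replicate 1, NPI replicate 1 or NPI replicate 3 (0.0523 to 0.0987). At rest the difference of -0.20 (SE 0.09) had an adjusted p of 0.117, and of 0.0329 without N0 replicate 1.

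Runx2, best known as the factor of bone formation and also present in effector and memory T cells, was the scarcest member in N0, at 15.8 ± 3.46 normalized counts per kb. Normalized counts of Runx2 were 166, 106 and 147 in N0 and 380.3, 442 and 306 in T0. After Ag there were 391, 258 and 227 in NAg and 588, 682 and 679 in TAg. PI gave 472, 496 and 388 in NPI and 1244, 904 and 1086 in TPI. Tolerized libraries were above naive ones in all 3 conditions without overlap. The log2 fold changes were 1.42 at rest (SE 0.22, adjusted p = 0.000375), 1.16 after Ag (SE 0.20, adjusted p = 0.000378) and 1.26 after PI (SE 0.19, adjusted p = 0.000106). The neutrophil marker sum was also higher in tolerized libraries in all 3 conditions. With the marker scores the value at rest was 1.21 (adjusted p = 0.259), in the fit that called 69 genes higher and 69 lower of all. After Ag and after PI the calls were kept with the scores, at 1.06 (adjusted p = 0.0137) and 1.06 (adjusted p = 0.0486).

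Stimulation raised Runx2 on top of that. It rose by 1.05 with Ag in naive cells (SE 0.22, adjusted p = 0.000678), by 0.79 in tolerized cells (SE 0.20, adjusted p = 0.00277, or 0.0832 with library totals), and by 1.69 and 1.52 with PI (SE 0.22 and 0.20, adjusted p = 6.69e-06 and 4.98e-06). The responses of the 2 states differed by -0.27 for Ag (SE 0.30, 95% interval -0.91 to 0.37, adjusted p = 0.599) and by -0.17 for PI (SE 0.29, 95% interval -0.79 to 0.46, adjusted p = 0.757), intervals too wide to show equal responses. The reads behind these values, 102 to 168 per library in N0, were the fewest of the 10 genes.

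Runx3, which works with Tbx21 in Th1 and cytotoxic programmes and silences Cd4 in CD8 T cells, was at 1124, 1248 and 1137 normalized counts in N0 and 1503, 1524 and 1534 in T0. NAg had 1282, 1545 and 1336, and TAg 1593, 1558 and 1446. NPI had 2068, 2149.7 and 2171, and TPI 2374, 2023 and 2227. The PI libraries were above all others, N0 below all others, and T0, NAg and TAg overlapped. T0 exceeded N0 by a log2 fold change of 0.38 (SE 0.08, adjusted p = 0.000976), the one call at rest that was kept with the marker scores (0.69, adjusted p = 0.0109). After Ag the libraries of both states overlapped, and TAg:NAg was 0.14 (SE 0.08, adjusted p = 0.144), although 0.23 without NAg replicate 2 (adjusted p = 0.0297), 0.30 with the marker scores (adjusted p = 0.0139) and 0.32 with library totals (adjusted p = 0.000624). TPI:NPI was 0.05 (SE 0.07, 95% interval -0.10 to 0.21, adjusted p = 0.631), or -0.06 with library totals.

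PI raised Runx3 by 0.86 in naive cells (SE 0.08, adjusted p = 5.22e-10) and by 0.54 in tolerized cells (SE 0.07, adjusted p = 7.38e-07), the latter -0.26 with library totals and 0.13 with the marker scores (adjusted p = 0.644). These responses differed by -0.33 (SE 0.11, adjusted p = 0.0311), but 8 of the 12 fits with a library left out missed the threshold, those without TPI replicate 2, T0 replicate 1, 2 or 3, NPI replicate 2 or 3 and N0 replicate 1 or 3 (adjusted p from 0.0535 to 0.101). Ag raised it by 0.25 in naive cells (SE 0.08, adjusted p = 0.00642), but by 0.19 when only the groups compared were fitted (adjusted p = 0.0558), -0.16 with library totals, and less than the threshold required without NAg replicate 2, N0 replicate 1 or N0 replicate 3 (adjusted p from 0.0748 to 0.0907). In tolerized cells the value for Ag was 0.01 (SE 0.08, adjusted p = 0.912), but -0.32 with library totals (adjusted p = 0.000288). The Ag responses differed by -0.24 (SE 0.11, adjusted p = 0.129), a difference that passed with DESeq2 (-0.28, adjusted p = 0.0452) and with the marker scores (-0.39, adjusted p = 0.0145).

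Cbfb, the partner of all 3 RUNX factors, rose with Ag in both states. With PI it fell in naive cells and did not pass the test in tolerized cells. Normalized counts of Cbfb were 1939.5, 1773 and 1789 in N0, 1512, 1627 and 1701 in T0, 3379, 3605 and 3676 in NAg, and 3365, 3872 and 4079 in TAg. NPI had 1326, 1429 and 1548, and TPI 1529, 1569.5 and 1406. NAg and TAg overlapped at the top, N0 was next without overlap, and T0, TPI and NPI overlapped below. The log2 fold change was 0.95 in NAg:N0 (SE 0.08, adjusted p = 7.79e-11) and 1.23 in TAg:T0 (SE 0.08, adjusted p = 1.13e-12). The difference of 0.27 did not pass (SE 0.11, adjusted p = 0.0843), although it did without TAg replicate 1 (0.34, adjusted p = 0.0273), without T0 replicate 3 (0.33, adjusted p = 0.0317) and with library totals (0.35, adjusted p = 0.0127). TAg:NAg was 0.09 (SE 0.08, adjusted p = 0.406), or 0.27 with library totals (adjusted p = 0.00362). With PI Cbfb went down by -0.35 in naive cells (SE 0.08, adjusted p = 0.000414), or -0.26 with the marker scores, which missed the threshold (adjusted p = 0.318). In tolerized cells the value was -0.10 (SE 0.08, adjusted p = 0.246), but -0.90 with library totals (adjusted p = 1.35e-10) and 0.01 with the marker scores. TPI:NPI was 0.06 (SE 0.08, adjusted p = 0.574), or -0.05 with library totals, and the PI responses differed by 0.25 (SE 0.11, 95% interval 0.02 to 0.48, adjusted p = 0.123). At rest T0:N0 was -0.18 (SE 0.08, adjusted p = 0.1), and -0.23 without T0 replicate 3 (adjusted p = 0.0476).

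**Figure D3:**
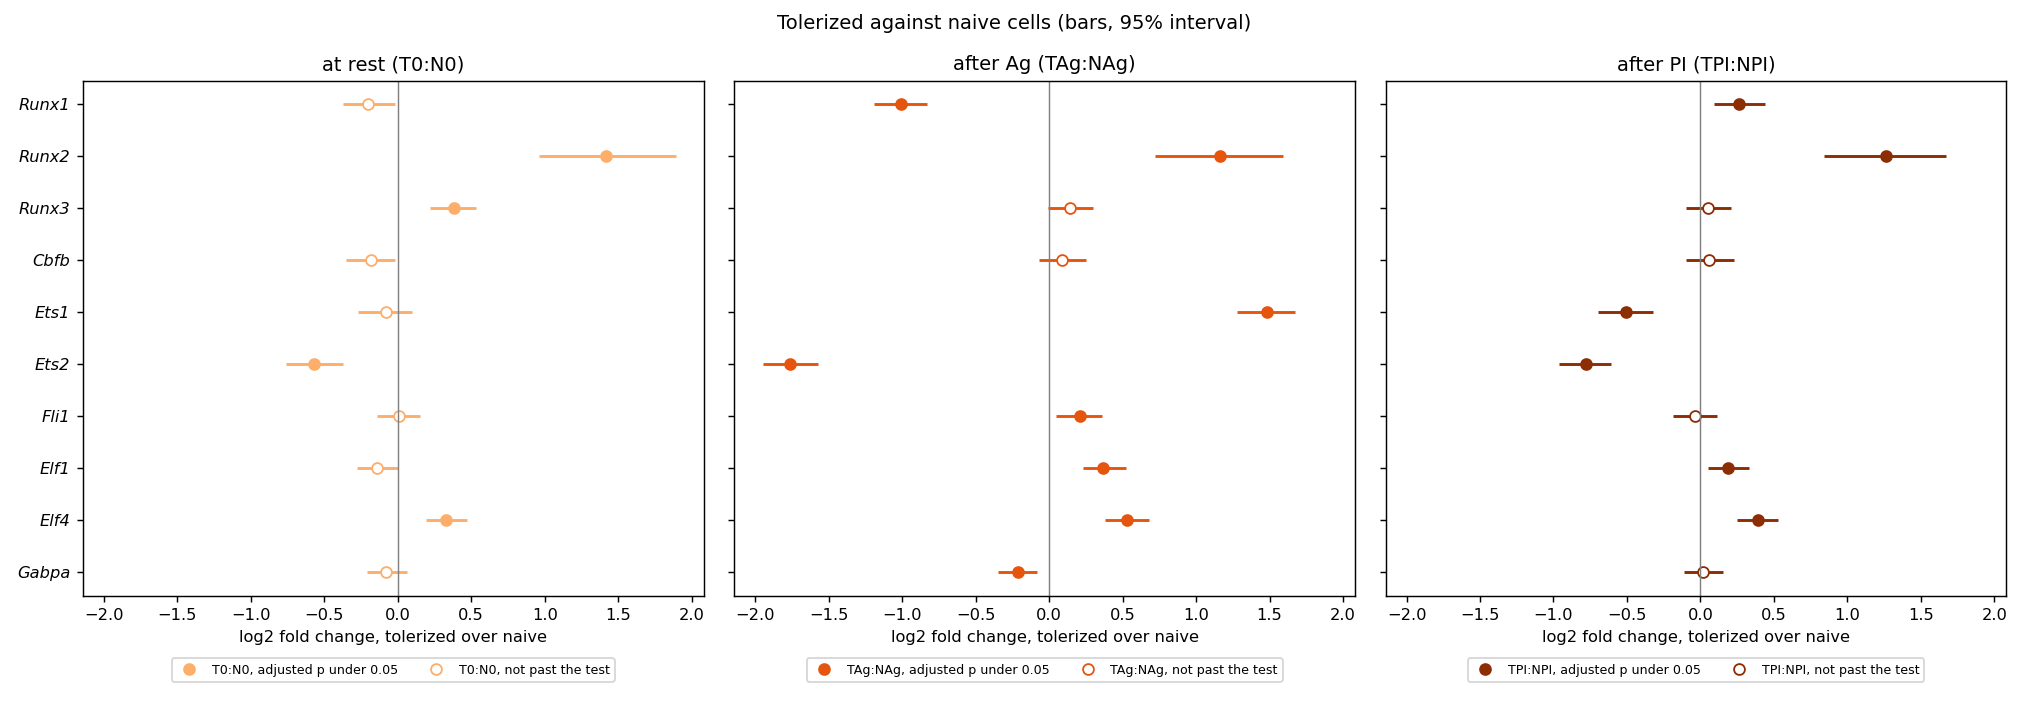
Log2 fold change of tolerized over naive cells (horizontal axes) for the 10 genes at rest, after Ag and after PI, with 95% intervals as bars and open circles where the test was not passed. Runx2 lies between 1.16 and 1.42 in each panel, whereas Ets1 moves from -0.08 at rest (0.02 with library totals) to 1.48 after Ag and -0.51 after PI.

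Added up per kilobase of exon, the 6 ETS transcripts shrank with Ag and changed in make-up. Their sum was 6126 ± 224 normalized counts per kb in N0 and 5920.0 ± 459.9 in T0, against 1896 ± 39.9 in NAg and 2385 ± 118 in TAg (SD, n = 3). With PI it was 7057 ± 369.5 in NPI and 5734 ± 71.6 in TPI.

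Ets1 made up 61.5 ± 0.622% of the ETS sum in N0 and 60.0 ± 1.46% in T0, 20.6 ± 2.31% in NAg and 45.5 ± 2.34% in TAg, and 39.3 ± 1.66% and 34.1 ± 0.610% in NPI and TPI. Ets2 made up 2.06 ± 0.0487% in N0 and 1.44 ± 0.0499% in T0, 27.7 ± 3.50% in NAg and 6.52 ± 0.498% in TAg, and 28.1 ± 1.15% and 20.1 ± 1.30% in NPI and TPI. In NAg, then, Ets2 was a larger part than Ets1 per kb of exon, while in TAg Ets1 was still the largest part. Before division by exon length the NAg means were close, at 2503 normalized counts for Ets1 and 2477 for Ets2. Other lengths were not tried for the ETS shares.

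The 3 RUNX transcripts summed to 495 ± 43.1 normalized counts per kb in N0, 560.3 ± 16.4 in T0, 645 ± 34.1 in NAg, 546 ± 18.3 in TAg, 786 ± 21.9 in NPI and 935 ± 88.9 in TPI. Runx1 held 49.4 ± 2.32% in N0, 38.2 ± 0.768% in T0, 51.9 ± 2.69% in NAg and 30.5 ± 0.682% in TAg, and 39.4 ± 0.732% and 39.7 ± 0.963% in NPI and TPI. Runx2 held 3.26 ± 0.947% in N0 and 7.57 ± 1.16% in T0, 5.10 ± 1.36% in NAg and 13.5 ± 1.23% in TAg, and 6.50 ± 0.749% and 13.0 ± 0.868% in NPI and TPI. Runx3 made up the rest. Tolerized cells thus had a larger share of Runx2 in all 3 conditions, and their share of Runx1 was lower at rest and after Ag. Shares depend on the lengths used: with the longest transcript in place of the exon union, Runx1 held 45.3% in N0 and 26.9% in TAg, and without the 2532 bases shared with the second locus Runx2 held 4.50% in N0 and 17.9% in TAg.

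**Figure D4:**
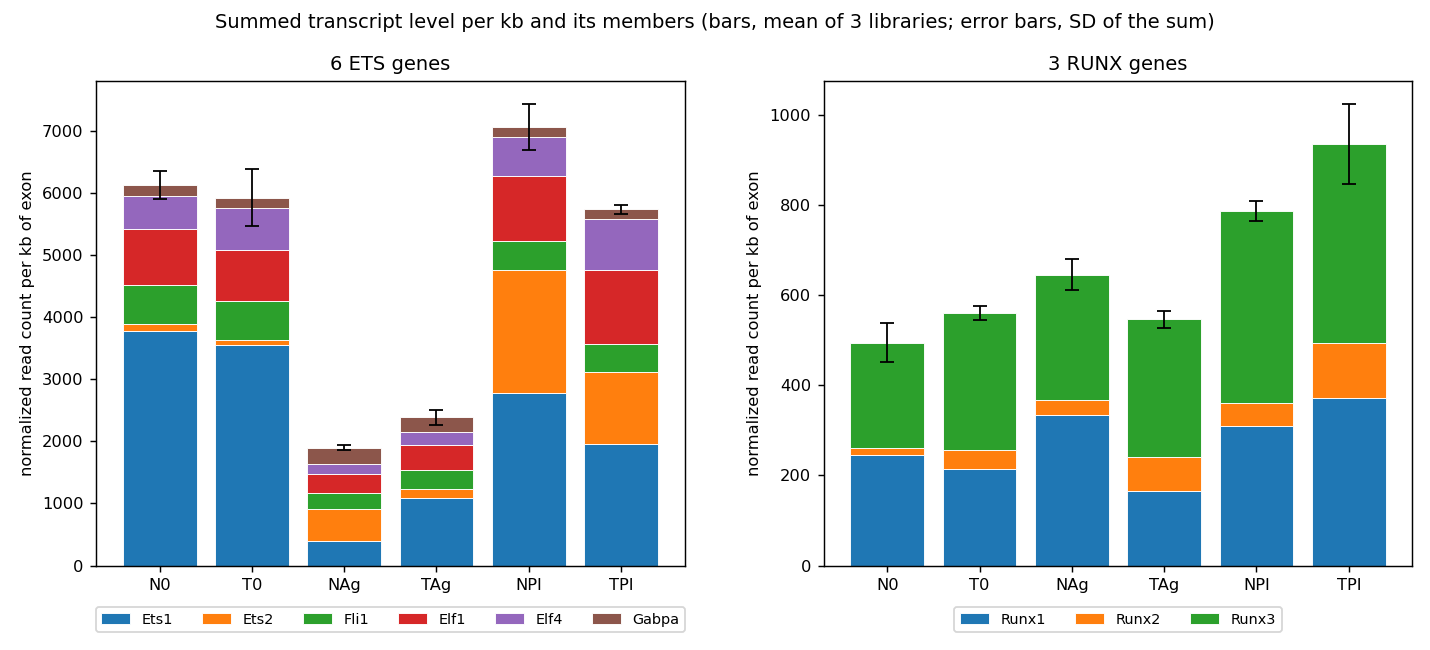
Summed normalized read counts per kb of exon (vertical axes, from 0) of the 6 ETS genes (left) and the 3 RUNX genes (right) in the 6 groups, split by gene, as means of 3 libraries with the SD of the sum as error bars. The ETS sum drops from 6126 in N0 to 1896 in NAg, where Ets2 is a larger part than Ets1.

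Of the 20 other ETS genes that were found, 16 were tested, and they had a mixed response to Ag. In NAg:N0 7 rose and 3 fell (of all genes 32.1% rose and 33.4% fell), with a median log2 fold change of 0.09 (0.00 over all genes), and in TAg:T0 4 rose and 2 fell (29.9% and 29.8% of all), with a median of 0.29 (-0.05 over all). Elk3, a repressor of the ternary complex group, fell in naive cells by a log2 fold change of -2.47 (SE 0.11, adjusted p = 5.93e-16) and in tolerized cells by -0.46 (SE 0.09, adjusted p = 0.000136), responses that differed by 2.01 (SE 0.14, adjusted p = 6.81e-10). Etv6, a repressor with a pointed domain, rose in both, by 2.05 (SE 0.10, adjusted p = 2.17e-15) and 2.22 (SE 0.09, adjusted p = 4.68e-16). With PI 6 rose and 0 fell in naive cells by the edgeR test, and in tolerized cells 7 rose and 0 fell (of all genes 28.6% rose and 32.7% fell in naive cells, and 32.0% and 36.3% in tolerized cells), led by the repressor Erf with 3.00 (SE 0.10) and 3.64 (SE 0.10).

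Between the states, 4 other ETS genes were higher and 2 lower in T0 than in N0, 5 higher and 3 lower in TAg than in NAg, and 5 higher and 0 lower in TPI than in NPI. Of all genes 20.4%, 39.4% and 37.9% were called in these comparisons. Etv6 was higher in tolerized cells in each, by 1.10, 1.28 and 1.32 (SE 0.10, 0.09 and 0.10). Spi1, the myeloid factor PU.1, was higher by 1.17 at rest (SE 0.28, adjusted p = 0.00652) and by 1.19 after Ag (SE 0.29, adjusted p = 0.00321), beside the rise in neutrophil markers, whose part was not tested. With the marker scores as covariates 2 of the other ETS genes were called at rest, in a fit that called 69 genes higher and 69 lower of all 17240, against 1452 and 2067 without the scores.

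Among 20 partners and co-regulators of RUNX and GABP, 19 of them tested, 6 rose and 11 fell in NAg:N0, with a median of -0.26. Over all genes the median there was 0.00, and 65.5% were called, 32.1% up and 33.4% down. In TAg:T0 5 rose and 10 fell (median -0.31, against -0.05 over all genes, with 59.8% called, 29.9% up and 29.8% down). With PI 11 rose and 6 fell in naive cells (61.4% of all genes called, 28.6% up and 32.7% down). In tolerized cells 12 rose and 5 fell with PI (68.3% of all called, 32.0% up and 36.3% down). Gabpb1, which encodes a GABPβ chain, rose with Gabpa after Ag, by 1.73 in naive cells (SE 0.08, adjusted p = 4.64e-16) and 1.42 in tolerized cells (SE 0.08, adjusted p = 3.97e-14). It rose after PI too, where Gabpa did not pass the test, by 2.48 (SE 0.08) and 3.41 (SE 0.08), and more in tolerized cells (difference 0.93, SE 0.10, adjusted p = 9.74e-07). Gabpb2, the other chain, fell by 1.07 (log2) in NPI:N0 and 1.18 in TPI:T0. Cbfa2t3, a co-repressor of the ETO family, fell by 1.77 (SE 0.40, adjusted p = 0.00134) and 2.92 (SE 0.38, adjusted p = 6.48e-06) in these comparisons. Of the Groucho co-repressors that RUNX proteins recruit, Tle1 was lower in tolerized cells at rest and after Ag (-1.21, SE 0.11, adjusted p = 1.59e-07, and -1.87, SE 0.11, adjusted p = 3.55e-12), while Tle3 was higher after Ag (0.89, SE 0.09, adjusted p = 6.9e-08). After PI, too, Tle1 was lower (-0.97, SE 0.10, adjusted p = 8.1e-08) and Tle3 higher in tolerized cells (0.81, SE 0.09, adjusted p = 2.1e-07).

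Of 20 genes known as targets of RUNX or ETS factors in T cells, all tested, 10 rose and 6 fell in NAg:N0 (32.1% and 33.4% of all genes), and 10 rose and 7 fell in TAg:T0 (29.9% and 29.8%). Zbtb7b, the CD4 lineage factor ThPOK, fell by 3.68 (log2) in naive cells (SE 0.11, adjusted p = 1.75e-19), and the response in tolerized cells differed from it by 2.28 (SE 0.14, adjusted p = 4.01e-11), the same direction as for Ets1. Il2, the gene of the T cell growth factor, reached 4452 ± 1209 normalized counts in NAg and 717 ± 175 in TAg, 2.63 lower on the log2 scale (log2 fold change -2.63, SE 0.25, adjusted p = 2.95e-06). Il3, a cytokine gene listed at 0 in all resting libraries, had 342 ± 101 normalized counts in NAg and 3.31 ± 3.81 in TAg. At rest 6 targets were higher and 5 lower in T0 (8.42% and 12.0% of all genes). Itgae, the integrin chain CD103, was higher by 2.81 (SE 0.44, adjusted p = 0.000734), Tbx21 (T-bet) by 1.78 (SE 0.26, adjusted p = 0.000331), and Il2rb by 1.64 (SE 0.26, adjusted p = 0.000874). With the marker scores 0 of the 20 were called at rest by the edgeR test, in the fit that called 69 genes higher and 69 lower of all. In TPI:NPI 6 were higher and 7 lower (18.2% and 19.7% of all).

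Across the 18 libraries, which include the differences between groups, the pattern of Elf1 ran with that of Elf4 (r = 0.977 of log2 normalized counts) and against those of Cbfb (r = -0.953) and Gabpa (r = -0.961). Cbfb and Gabpa had r = 0.952, and Ets1 and Fli1 r = 0.946. Ets1 and Ets2, in contrast, had r = -0.189. Among the 3 genes most like a member, of 11554 compared, were Tmc6 for Ets1 (r = 0.995), Tmx4 for Elf1 (r = 0.996), Lats2 for Elf4 (r = 0.992), Sik1 for Ets2 (r = 0.988), Rab10 for Cbfb (r = 0.989) and Ercc8 for Gabpa (r = 0.987). For Runx2 they included Il10, the cytokine of regulatory cells (r = 0.977), and Ptger2 (r = 0.958), and for Runx1 Dock11 (r = 0.957) and Cd40lg, the CD40 ligand (r = 0.94). The values are descriptions over libraries that share groups, depth and scale, and carry no test.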

How the data were processed

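RNA was measured in 18 libraries of enriched CD4 T cells, 3 in each of 6 groups taken from the labels. Per the labels and the methods of the study, ribosomal RNA was depleted, reads were aligned to mm9 with TopHat2 2.1.1 and counted per Ensembl gene with HTSeq 0.9.1, and the authors deposited raw counts of 37991 genes per library, without pooling or normalization. The strand and overlap settings of the counting are not given in the sources used here. Gene positions and exon lengths came from a GENCODE annotation of the same build, which held 37205 of the genes.

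The deposited counts were scaled by TMM and fitted with edgeR 4.0.16 (R 4.3.3) to 1 mean per group over all libraries. The 17240 genes whose mean normalized count reached 3 in any group went into robust quasi-likelihood F tests, including the differences in response between both cell states, and p-values were adjusted by Benjamini-Hochberg over these genes. A gene was called at an adjusted p under 0.05. SEs were taken from the log2 fold change and its F statistic, and 95% intervals from the t distribution of the test. P-values set each difference in group means against the spread between these samples within groups, pooled over all groups and moderated across genes. Alternatives were DESeq2 1.42.0 and its size factors, library totals, no filter, only the groups compared, the replicate number as a block, sex, scores of erythroid and myeloid markers as covariates, other gene lengths (1 of them chosen after seeing the data) and each library left out. The scripts were tested on simulated data.

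Depth was 10758571 to 24119489 counts per library, which leaves the smallest counts the least precise. A likeness is Pearson's r of log2 normalized counts plus 0.5. Some of the genes most like a member are not reported here. The 10 genes and the lists were chosen with earlier results of these data known. All 10 are named in each comparison, and the genes named from a list are among the 6 called genes with the largest changes in that comparison, at a mean count above 50. Promoters are RefSeq windows of GRCm38.p6.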

Additional observations from a re-analysis of the deposited data

Results flagged for a closer look

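Results were set apart here where the response to a stimulus differed between tolerized and naive cells by the test of that difference in the edgeR fit (log2 fold change in tolerized cells minus that in naive cells, Benjamini-Hochberg adjusted p over all genes tested). For Ag these were Ets1 with 1.56 (SE 0.13, adjusted p = 8.38e-09), Ets2 with -1.20 (SE 0.13, adjusted p = 4.68e-07), Runx1 with -0.81 (SE 0.12, adjusted p = 3.46e-05) and Elf1 with 0.52 (SE 0.10, adjusted p = 0.000374). For PI they were Runx1 with 0.46 (SE 0.12, adjusted p = 0.00869), Elf1 with 0.33 (SE 0.09, adjusted p = 0.0156), Ets1 with -0.42 (SE 0.13, adjusted p = 0.0212) and Runx3 with -0.33 (SE 0.11, adjusted p = 0.0311). Ets1, Runx1 and Elf1 are on both lists, Ets1 and Runx1 with opposite signs for Ag and PI and Elf1 with the same sign. The Ag and PI tests share the resting libraries. Sex changed in full in NPI:N0 but only in part in TPI:T0, so it does not cancel in the PI differences. It does not cancel in the Ag differences either, as T0 had 2 male libraries and TAg 1. With sex as a covariate 2 members were called higher and 2 lower for PI, and 2 higher and 2 lower for Ag. That covariate rests on T0 and TAg, the groups that held both sexes.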

How the results depend on the processing

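The number of members called moved by over 1.5 times with the marker scores of other cells as covariates in T0:N0 (1 gene), NPI:N0 (4) and TPI:T0 (5), and with library totals for the difference in response to Ag (7). Over all 17240 genes the marker fit called 69 higher and 69 lower in T0:N0, 2805 and 2711 in NPI:N0, and 3031 and 2621 in TPI:T0. The main fit called 1452 and 2067, 4935 and 5642, and 5509 and 6259. For the difference in response to Ag, library totals called 3263 higher and 1025 lower of 17283 genes, against 2511 and 1223 in the main fit. With a library left out, the number called for the difference in response to PI ranged from 2 to 4. With library totals the log2 fold change reversed for Runx3 in NAg:N0 (-0.16), Runx1 (-0.24), Elf1 (-0.37) and Elf4 (-0.35) in NPI:N0, Runx1 (-0.01), Runx3 (-0.26), Elf1 (-0.26) and Elf4 (-0.51) in TPI:T0, Ets1 (0.02) and Gabpa (0.03) in T0:N0, Runx3 (-0.32) in TAg:T0, Runx3 (-0.06), Cbfb (-0.05) and Gabpa (-0.09) in TPI:NPI, and Elf4 (-0.16) and Gabpa (-0.13) in the difference in response to PI. With sex as a covariate it reversed for Ets1 in T0:N0 (0.07) Runx3 in TAg:T0 (-0.01), and Runx2 (0.01) and Elf4 (-0.06) in the difference in response to PI. With the marker scores it reversed for Fli1 (0.05) and Gabpa (-0.04) in TPI:NPI, Runx3 in TAg:T0 (-0.05), Gabpa in NPI:N0 (0.00), and Cbfb (0.01) and Gabpa (0.13) in TPI:T0. It also reversed for Gabpa in TPI:T0 with DESeq2's size factors (0.00), and for Runx3 in TAg:T0 (-0.03) and Elf4 in the difference in response to PI (-0.02) with only the groups compared. With a library left out it reversed for Fli1 in T0:N0 (-0.02, -0.03 and -0.04, in a range from -0.04 to 0.04) for Runx3 in TAg:T0 (range -0.03 to 0.05), Fli1 (-0.09 to 0.04) and Gabpa (-0.01 to 0.06) in TPI:NPI, Gabpa in TPI:T0 (-0.09 to 0.00), and Runx2 (-0.29 to 0.01) and Fli1 (-0.10 to 0.04) in the difference in response to PI. The cause was not tested. Of 720 values from other settings 650 kept direction and side of the threshold, as did 604 of 660 from fits without 1 library. Differences in response of Ets1, Ets2, Runx1 and Elf1 to Ag were among them in each of these fits.

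Replicates with equal numbers did not deviate together (r from -0.502 to 0.234, median -0.027, over 45 pairs, and 3 of 18 libraries closest to their own number), so the numbers do not pair the libraries, and the replicate block changed the direction or call of 0 of the 90 log2 fold changes. Depth limits Runx2 most.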
